A study of Mus musculus with 86 samples.

Results

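The lung epithelial genes Scgb1a1, Sftpc, Sftpb, Sftpa1, Sftpd and Epcam were followed through a set of mouse heart arrays. They were taken as every probe set that the array's annotation names with 1 of these 6 symbols, which gave 9 of the 45101 probe sets and 6 of the 18193 genes named by a single symbol. The 6 were chosen by a measured value, the large fall of Scgb1a1 with isoproterenol in the B6129SF2/J line, so all values of that comparison are a description and carry no test. In most of the 85 arrays the 5 secreted products read under the array's median probe set, and 7 arrays stood far above the rest at Scgb1a1, at Sftpc or at both.

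The study compared hearts of 4 mouse lines, called wild-type FVB, wild-type C57BL/6, B2KO and B6129SF2/J, either untreated or after a 14-day infusion of isoproterenol, a beta-adrenergic agonist, at 120 µg/g/day. The labels do not explain the name B2KO, give no age and name no part of the heart, and they speak of killing under avertin and of random assignment to treatment. After 2 near-identical treated B2KO arrays were averaged, FVB had 10 untreated and 12 treated arrays, C57BL/6 had 11 and 10, B2KO had 10 of each, and B6129SF2/J had 10 and 12. Per the study's description, the catecholamine impaired contraction of FVB and B2KO hearts and filling of C57BL/6 hearts, and B6129SF2/J served to check genes found in the others. All levels below are log2 values on a scale where each array's median probe set is 0, and differences are treated minus untreated with the SE of the fit. In bulk RNA, fewer cells of a type and less RNA per cell cannot be told apart.

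The airway and the alveoli are lined by different secretory epithelial cells. Club cells of the conducting airway secrete Scgb1a1, a small secretoglobin that is among the most abundant products of the airway. Alveolar type 2 cells make surfactant, the film that keeps alveoli open: Sftpc and Sftpb are its small hydrophobic proteins, Sftpc being restricted to type 2 cells while Sftpb is also made by club cells, and Sftpa1 and Sftpd are collectins that bind microbes. Epcam is an adhesion molecule on the surface of most epithelia, those of the thymus included, and is not particular to the lung. The lung transcription factor Nkx2-1 acts on the promoters of Scgb1a1 and of surfactant genes.

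The RefSeq promoter table of GRCm38.p6 held 3 of the 6 members, Sftpb, Sftpa1 and Epcam, and all 3 promoters are shown for that reason. Scgb1a1, Sftpc and Sftpd were not in it. The part of these sequences in the members' values was not tested. Each sequence is the 250 bases before the start site on the plus strand, 5′ to 3′, and capitals mark CTCAAG, the core letters of a motif known for Nkx2-1, searched on both strands. The windows are chr6:72304360-72304609 for Sftpb, chr14:41131538-41131787 for Sftpa1 and chr17:87635729-87635978 for Epcam.
Sftpb: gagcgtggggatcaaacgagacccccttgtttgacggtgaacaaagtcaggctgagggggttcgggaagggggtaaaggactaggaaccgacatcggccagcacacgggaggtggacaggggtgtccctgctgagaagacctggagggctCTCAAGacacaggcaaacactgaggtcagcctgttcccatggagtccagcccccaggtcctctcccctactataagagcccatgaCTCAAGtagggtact
Sftpa1: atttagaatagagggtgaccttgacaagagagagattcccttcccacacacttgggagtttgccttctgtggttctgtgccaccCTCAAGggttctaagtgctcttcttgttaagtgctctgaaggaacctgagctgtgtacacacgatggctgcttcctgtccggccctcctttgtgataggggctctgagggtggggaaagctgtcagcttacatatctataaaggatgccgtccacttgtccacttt
Epcam: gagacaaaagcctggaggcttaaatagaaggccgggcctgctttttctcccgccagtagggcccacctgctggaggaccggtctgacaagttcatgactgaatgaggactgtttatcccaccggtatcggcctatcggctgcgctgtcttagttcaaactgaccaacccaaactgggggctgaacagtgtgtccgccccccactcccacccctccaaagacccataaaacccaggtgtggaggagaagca
CTCAAG stood at positions -100 to -95 and -15 to -10 from the start site of Sftpb and at -166 to -161 in Sftpa1, and its letters were not found in the Epcam window on either strand. Of 32851 promoter windows of this length, 13.3% held CTCAAG. The forkhead letters TGTTTAC, searched likewise, were in none of the 3 windows and in 3.17% of all windows. Sftpa1 and Sftpd lie near each other on chromosome 14 with 1 coding gene, Mbl1, between them, and Sftpc lies on the same chromosome, while Scgb1a1 lies on chromosome 19.

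The arrays carried the expected muscle. Over the 84 arrays other than treated B2KO replicate 10, which failed by its correlation with the others, the ventricular light chain Myl2 ran from 10.01 to 11.73 and the atrial light chain Myl7 from 7.57 to 10.28. Of the others, 7 were in doubt, treated FVB replicate 2 and treated B2KO replicate 7 by markers of the strain and 5 by a gap between the 3′ and 5′ ends of Gapdh. None of these 8 arrays was among the 7 that were high at Scgb1a1 or Sftpc.

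Scgb1a1 was read by 1 probe set, 1452543_a_at, and lay above the array median in 8 of the 85 arrays. Its lowest, median and highest values were -1.81, -1.10 and 0.02 in untreated FVB and -1.94, -1.40 and 4.84 in treated FVB. In C57BL/6 they were -1.71, -1.31 and -0.07 untreated and -1.91, -1.32 and -0.12 treated. The groups of these lines overlapped almost fully, and a single treated FVB array left them.

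In B2KO the lowest, median and highest Scgb1a1 values were -1.95, -0.72 and 7.09 untreated and -2.05, -1.31 and -0.09 treated. In B6129SF2/J they were -1.35, -0.56 and 8.90 untreated and -1.84, -1.33 and -0.18 treated. The medians of untreated B6129SF2/J and B2KO were the highest of the 8 groups but still under 0, and neighbouring groups in that order overlapped. The arrays at log2 2 or above were 6: untreated B6129SF2/J replicates 6 (8.90), 1 (7.38) and 10 (5.64), untreated B2KO replicates 5 (7.09) and 3 (5.35), and treated FVB replicate 3 (4.84). The next array, untreated B6129SF2/J replicate 5, was at 0.18, so no array lay between 0.18 and 4.84. At 8.90 Scgb1a1 was brighter than 99.3% of the probe sets of its array and 9.53 log2 units above the median of the other arrays of its group. The median percentile of Scgb1a1 within an array was 39.8 in this group.

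**Figure D1:**
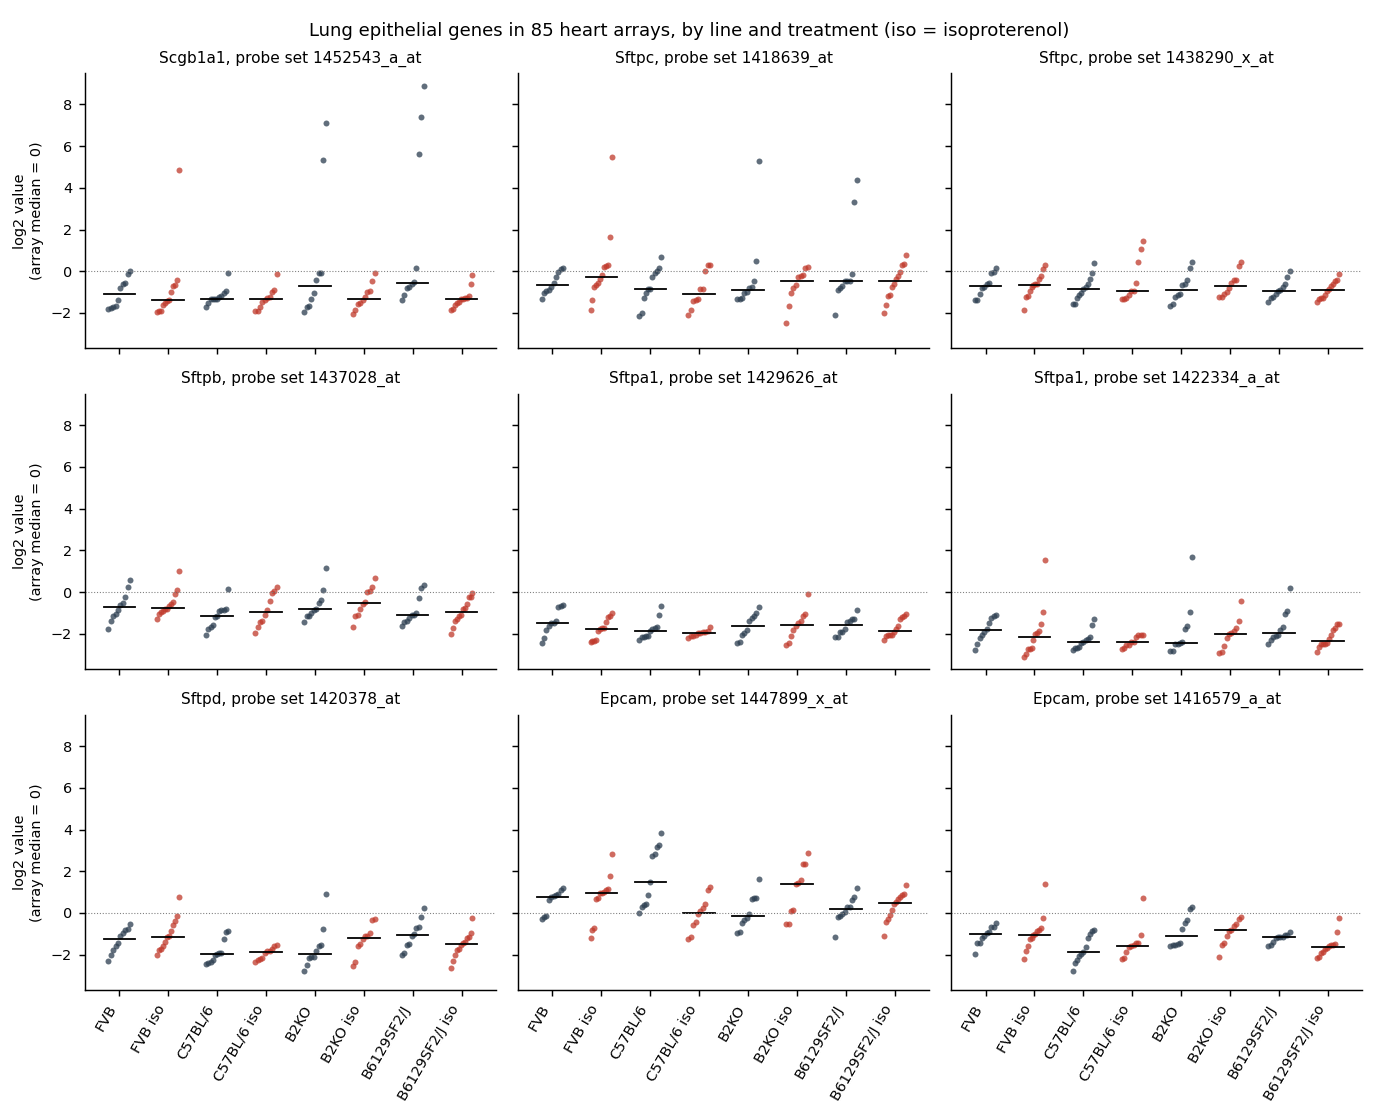
Each point is 1 of 85 arrays, black for untreated and red for isoproterenol, in the 8 groups on the horizontal axis. The vertical axis is the log2 value with the array's median probe set at 0, a bar marks the group median, and each panel is 1 of the 9 probe sets of the 6 genes. Scgb1a1 reaches 8.90 and Sftpc (1418639_at) 5.49 in single arrays far above their groups, while Sftpa1 (1429626_at) stays under 0 in every array.

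Sftpc, the type 2 cell protein, was high in 4 arrays, 3 of them also high at Scgb1a1. Its probe set of higher mean, 1418639_at, was above the array median in 21 of 85 arrays and at log2 2 or above in 4: treated FVB replicate 9 (5.49), untreated B2KO replicate 5 (5.28) and untreated B6129SF2/J replicates 1 (4.37) and 10 (3.31). Treated FVB replicate 3 was at 1.65, and of the arrays outside the 7 the highest was treated B6129SF2/J replicate 6 at 0.76. Group medians ran from -1.10 in treated C57BL/6 to -0.28 in treated FVB, and all 8 groups overlapped. The second probe set, 1438290_x_at, did not rise in the arrays where the other was high: it read -0.63 in treated FVB replicate 9 and -1.58 in untreated B2KO replicate 5, and its highest value over all arrays was 1.43. The suffix x is the maker's mark for probes that also match other transcripts.

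Sftpb, the other hydrophobic surfactant protein, was above the array median in 15 of 85 arrays and never at log2 2. Its highest values were 1.16 in untreated B2KO replicate 5 and 1.02 in treated FVB replicate 9, and its group medians ran from -1.12 to -0.52. The collectin Sftpd was above the array median in 3 arrays, untreated B2KO replicate 5 (0.91), treated FVB replicate 9 (0.77) and untreated B6129SF2/J replicate 10 (0.22), which are 3 of the 4 arrays high at Sftpc. Its group medians ran from -1.99 to -1.05.

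Of the 2 probe sets of the collectin Sftpa1, as of Sftpc, only 1 rose above the array median in arrays high at Sftpc, but here it was the set of lower mean. Over 85 arrays the 2 Sftpa1 sets had r = 0.73 and rho = 0.89, and the 2 Sftpc sets r = 0.02 and rho = 0.20. The set of higher mean, 1429626_at, stayed under the array median everywhere, at most -0.11, whereas 1422334_a_at was above it in 3 arrays, untreated B2KO replicate 5 (1.70), treated FVB replicate 9 (1.56) and untreated B6129SF2/J replicate 1 (0.18). These 3 are again arrays high at Sftpc. In the other arrays the 1422334_a_at set lay close to the bottom of the scale, with a median percentile of 3.74 within an array.

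Epcam, read by its probe set 1447899_x_at, whose suffix carries the same mark of probes that match other transcripts, was above the array median in 57 of 85 arrays and at log2 2 or above in 9. None of these 9 was among the 7 arrays high at Scgb1a1 or Sftpc, where it ran from -0.25 to 1.18. The other probe set, 1416579_a_at, lay above the array median in 4 of 85 arrays. Over the 85 arrays the 2 Epcam probe sets had a Pearson r of -0.16 and a Spearman rho of -0.07, given as a description of 2 readings of 1 gene.

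Scgb1a1 and Sftpc did not rise to a fixed ratio. Untreated B6129SF2/J replicate 6 had the highest Scgb1a1 with Sftpc at -0.47, and untreated B2KO replicate 3 had Scgb1a1 at 5.35 with Sftpc at -1.26. Treated FVB replicate 9 showed the reverse, with the highest Sftpc and Scgb1a1 at -0.64. The remaining 4 of the 7 arrays had both raised, with Sftpc at 1.65 or more. By line, the 7 were 3 of 22 B6129SF2/J arrays, 2 of 20 B2KO, 2 of 22 FVB and 0 of 21 C57BL/6, and by treatment 5 of 41 untreated and 2 of 44 treated.

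**Figure D2:**
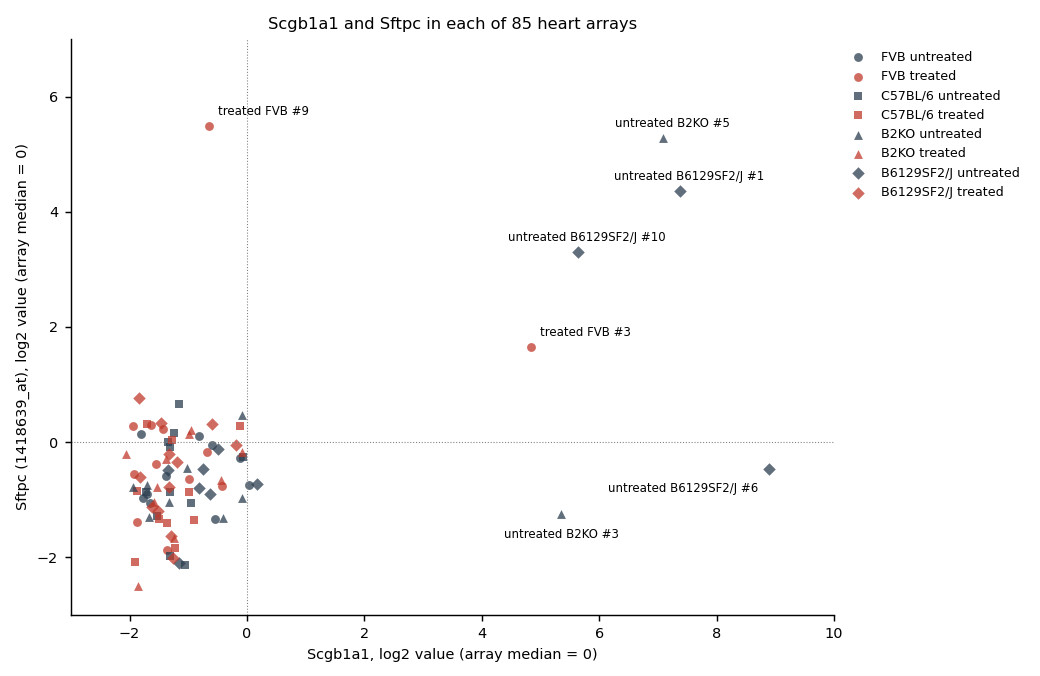
Each point is 1 of 85 arrays, with the log2 value of Scgb1a1 on the horizontal axis and of Sftpc (probe set 1418639_at) on the vertical axis, array median at 0. Shape marks the line and colour the treatment. The 7 labelled arrays lie away from the cloud, 4 of them with both genes raised and Sftpc at 1.65 or more, 2 at Scgb1a1 with Sftpc at -0.47 and -1.26, and treated FVB #9 at Sftpc alone with Scgb1a1 at -0.64.

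Because the arrays formed a cloud and 7 arrays outside it, correlations were taken separately in each. Among the other 78 arrays, Scgb1a1 and Sftpc had r = 0.17 and rho = 0.14, with permutation p = 0.137 and 0.231 and adjusted p = 0.187 and 0.247 over the 15 pairs. Of the 15 pairs, 3 passed an adjusted p of 0.05 by both measures. Scgb1a1 with Sftpa1 had r = 0.64 and rho = 0.63, each with a permutation p of 1e-05, the smallest that the resamples can give, and adjusted p = 7.5e-05, and r = 0.71 without the 2 arrays farthest from the Scgb1a1 median. Sftpa1 with Sftpd had r = 0.62 and rho = 0.60 with the same p-values, and r = 0.57 without 2 arrays. Scgb1a1 with Sftpd had r = 0.36 and rho = 0.35 with permutation p = 0.00098 and 0.00173, adjusted p = 0.0049 and 0.00865, and r = 0.36 without 2 arrays.

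These dim values also followed the bottom of each array's own scale. Over the same 78 arrays, the array's 10th percentile had r = 0.94 and rho = 0.92 with Sftpa1 (1429626_at), 0.98 and 0.98 with its probe set 1422334_a_at, 0.66 and 0.67 with Sftpd, and 0.66 and 0.63 with Scgb1a1. For Sftpc the pair was 0.22 and 0.20 by 1418639_at and 0.54 and 0.64 by 1438290_x_at. For Epcam it was 0.10 and 0.14 by 1447899_x_at and 0.36 and 0.49 by 1416579_a_at, and for Sftpb 0.24 and 0.22. The part of the 10th percentile in the correlations among the members was not tested.

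The 7 high arrays were picked for their Scgb1a1 and Sftpc values, so correlations among them are a description with no p. Sftpb and Sftpd had r = 0.98 and rho = 1.00, and r = 0.98 without the 2 farthest arrays. Sftpc with Sftpa1 read by 1422334_a_at had r = 0.96 and rho = 0.96, and r = 0.91 without the 2 farthest. By the Sftpa1 probe set of higher mean, which stands for the gene elsewhere, the pair had r = 0.86 and rho = 0.82. Without the 2 farthest arrays that r fell to 0.37, so the strength of this pair depended on the probe set. Sftpc went with Sftpb at r = 0.92 and rho = 0.89. Scgb1a1 had r = -0.39 and rho = -0.21 with Sftpc there, and r = 0.76 without the 2 farthest. Without the 2 farthest, Scgb1a1 had r = 0.70 with Sftpb and 0.65 with Sftpd. Sftpc, Sftpb and Sftpd thus ordered the 7 arrays much alike. Scgb1a1 ordered all 7 otherwise, but picking arrays high at either gene admits those high at 1 alone, which lowers its r with Sftpc. No contrast between Scgb1a1 and the surfactant genes is drawn from these 7 arrays.

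Other genes of the airway rose in the arrays high at Scgb1a1. The club and secretory list held 9 genes, all on the array. In untreated B6129SF2/J replicate 6, 5 of the 9 were above the array median and at least 2 log2 units above the median of the other arrays of the group, the measure used for lists below, against 0.0989% of all 18193 genes. They included Bpifa1 (6.31), an antimicrobial protein of the upper airway, the secretoglobins Scgb3a2 (5.16) and Scgb3a1 (4.63), and Cyp2f2 (4.47), a cytochrome of club cells. In the 78 other arrays, Bpifa1, Scgb3a2 and Cyp2f2 reached at most -0.25, -0.21 and 0.29. Ltf, an antimicrobial protein of airway secretions and of neutrophils, named after its values were seen, was at 2.40 in this array and at most 0.34 in the 78.

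Bpifa1, Scgb3a2 and Cyp2f2 were higher in 5 of the 6 arrays high at Scgb1a1 than in any of the 78. Bpifa1 was at 4.30 in treated FVB replicate 3, 3.04 in untreated B2KO replicate 5, 2.79 in untreated B2KO replicate 3 and 1.64 in untreated B6129SF2/J replicate 1. Scgb3a2 was at 2.16, 3.76, 2.24 and 2.32 in these arrays. In untreated B6129SF2/J replicate 10 Scgb3a2 (0.28) and Cyp2f2 (0.61) were above all 78 others and Bpifa1 (-0.24) was only level with their highest. In treated FVB replicate 9, high at Sftpc alone, Scgb3a2 was at -0.59, Cyp2f2 at -1.75 and Bpifa1 at -1.28.

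Markers of the alveolar epithelium beside the surfactant proteins rose little. Of 9 alveolar type 2 genes on the array, 1 stood 2 log2 units or more above its group in each of 3 arrays and none in the other 4. Over all genes the share that far above its group in these 3 arrays was 0.709%, 0.115% and 0.148%. The type 2 gene was Cxcl15, a chemokine of lung epithelium, at 1.67 in untreated B2KO replicate 5, 0.89 in untreated B6129SF2/J replicate 1 and 0.37 in treated FVB replicate 9, with 0.31 as the highest of the 78. Ager, a receptor abundant on type 1 cells, was at 1.48 in untreated B2KO replicate 5 and 1.07 in untreated B6129SF2/J replicate 1, within the range of the 78 arrays, and 0 of the 8 type 1 genes rose that far in any of the 7. Of 5 alveolar macrophage genes on the array, 1 stood that high in untreated B2KO replicate 5, against 0.709% of all genes. In treated FVB replicate 9 also 1 of the 5 did, against 0.148%, and none did in the rest of the 7. Chil3 of this list was at 0.57 in treated FVB replicate 9, 2.50 above the median of its group's other arrays. The lung factors Nkx2-1, Foxa1 and Foxa2 were under the array median in all 7 arrays, the highest reading being -0.60.

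**Figure D3:**
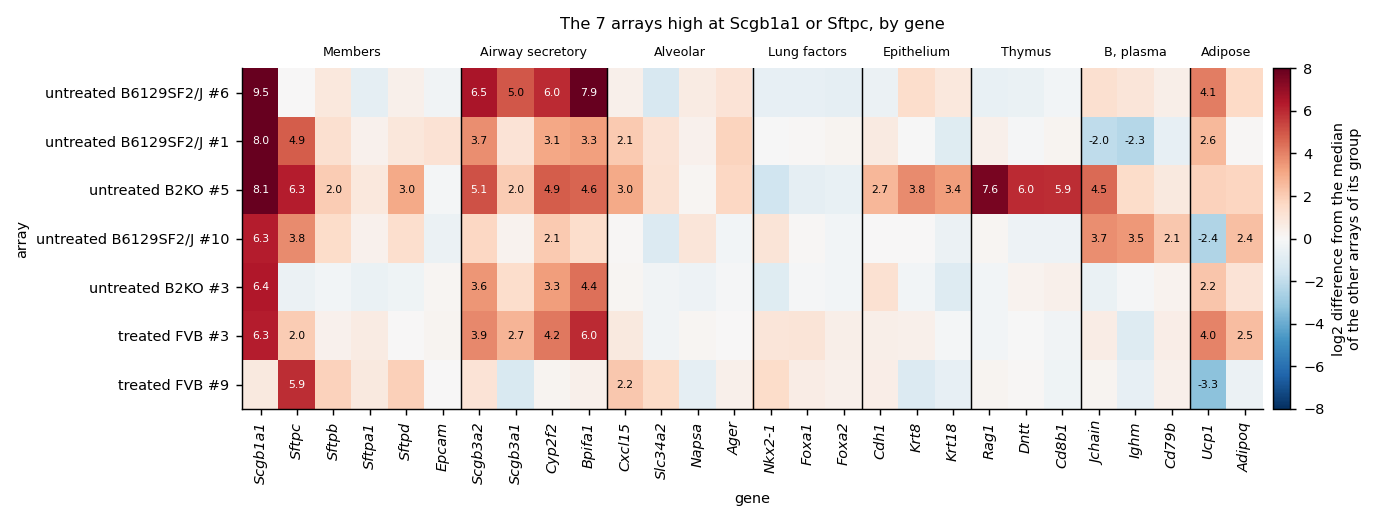
Rows are the 7 arrays at log2 2 or above at Scgb1a1 or Sftpc and columns are genes, grouped as named above the map. Colour is the log2 difference of the array from the median of the other arrays of its group, and differences of at least 2 in either direction are printed. Scgb1a1 stands 6.3 to 9.5 above the other arrays of its group in 6 rows, and in 5 of these Scgb3a2, Cyp2f2 and Bpifa1 are all at least 2 above theirs, while the columns of the lung factors stay pale.

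Genes of other tissues moved with the members in some of these arrays. In untreated B2KO replicate 5, 6 of 10 thymus genes on the array stood 2 log2 units or more above their group, against 0.709% of all genes. The recombinase gene Rag1 was at 5.87 in it, Dntt, which adds bases at receptor joints, at 3.83 and Cd8b1 at 4.32. Of 14 general epithelial genes on the array, 3 stood that high in it too, and the list's median difference from the group was 0.49. The epithelial keratins Krt8 (3.22) and Krt18 (4.12) and the cadherin Cdh1 (1.16) were high, while Cldn7 of the same list was at -1.77. In untreated B6129SF2/J replicate 10, 3 of 8 B and plasma cell genes stood that high above their group, against 0.192% of all genes. Ighm was at 7.95, Jchain at 5.43 and Cd79b at 2.23. In this array and in treated FVB replicate 3, 3 of 6 adipose genes also stood that high, against 0.192% and 0.198% of all genes, and in the other 5 arrays 0 or 1 did. Brown fat's Ucp1 was at 6.85 in treated FVB replicate 3 and 4.65 in untreated B6129SF2/J replicate 6, but it reached 6.94 among the 78 arrays. Rag1 likewise reached 7.01 in treated FVB replicate 6, where Scgb1a1 was at -1.88, so thymus genes were also high where the lung genes were not. In untreated B6129SF2/J replicate 1 a control probe set of 18S ribosomal RNA was at 5.50, where the median of its group's other arrays was 0.19. The part of these tissues and of that RNA signal in the members' values was not tested.

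The summed linear level of the 9 club and secretory genes reached its highest values in untreated B6129SF2/J and untreated B2KO, but was not higher in treated FVB than in groups without a high array. It ran from 34.6 to 232 with a median of 55.4 in untreated B6129SF2/J and from 33.7 to 48.3 with a median of 42.2 in treated B6129SF2/J. In B2KO it ran from 36.5 to 97.3 untreated and from 8.07 to 56.3 treated, the lowest being the failed array. In FVB it ran from 21.7 to 72.4 untreated, with no array high at Scgb1a1, and from 21.6 to 63.15 treated, which holds 1 such array. In treated and untreated C57BL/6, with none, the highest sums were 72.0 and 57.25. Of the 9 genes, 6 or 7 had a group median under the array median in every group. The sum also holds Cyp4b1, which was not limited to the arrays with airway genes, as given below. The part of Cyp4b1 in the sums was not tested. In treated FVB replicate 3, 4 of the 9 genes stood 2 log2 units or more above their group, against 0.198% of all genes.

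Genes of like pattern were ranked for each member by Pearson r of deviations from the group mean over 85 arrays, among genes past the filter on low values. Closest to Scgb1a1 were Scgb3a1 (r = 0.61), Sftpc (0.52), an immunoglobulin kappa variable segment (0.37), Snhg11 (0.36) and Bcl2l14 (0.34). Without the 7 high arrays the r with Scgb3a1 was 0.03 and with Sftpc 0.20. Closest to Sftpc after Scgb1a1 were Tacr2 (0.36), Spink2 (0.35), Snhg11 (0.34) and Gm33409 (0.34). For Sftpb and for Sftpd the gene of highest r was Sftpc, at 0.54 and 0.56, and without the 7 arrays these were 0.25 and 0.18. Next came Scgb1a1 (0.42), Snhg11 (0.37), Kantr (0.34) and Robo1 (0.33) for Sftpb, and Oaz3 (0.51), an immunoglobulin kappa segment (0.46), Snhg11 (0.45) and Scgb1a1 (0.45) for Sftpd. Sftpa1 was most like Ccdc30 (0.67) and Epcam most like Ccdc191 (0.64), and both values changed little without the 7 arrays, to 0.71 and 0.64. Sftpa1 itself had r = 0.94 with the array's 10th percentile over the 78 arrays, and the part of that in its likeness was not tested. Next for Sftpa1 were 2700099C18Rik (0.66), Glb1l (0.66), Shisa2 (0.63) and 3830403N18Rik (0.62), and for Epcam Slc5a9 (0.58), 4930461C15Rik (0.56), Prss40 (0.56) and Gm33409 (0.54). Over all 18193 genes with no filter, an alternative added after the values were seen, Scgb1a1 was most like Scgb3a2 (0.91), Bpifa1 (0.90) and Cyp2f2 (0.82), with 0.55, 0.66 and 0.31 without the 7 arrays. In that ranking Sftpc was most like Cxcl15 (0.60), Chil3 (0.57), Sftpd (0.56) and Sftpb (0.54), with 0.28, 0.22, 0.18 and 0.25 without the 7. Sftpd was most like Chil3 (0.70), Sftpa1 (0.63) and 2310061N02Rik (0.61), with 0.60, 0.67 and 0.66 without the 7. Sftpb was most like Sftpc (0.54), Sftpd (0.42) and Scgb1a1 (0.42). Sftpa1 was most like BB031773, Prl7a2 and Psg-ps1, each at 0.89, with 0.95, 0.93 and 0.95 without the 7. Points of these correlations share the depth and scaling of their arrays.

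Treated and untreated mice were compared in FVB, C57BL/6 and B2KO, and 3 of the 6 members, Scgb1a1, Sftpc and Epcam, passed the filter on low values, a group mean above the array median. Scgb1a1 passed through untreated B6129SF2/J (mean 1.69) and untreated B2KO (0.42), the groups that hold high arrays, and Sftpc through treated FVB (0.18) and untreated B6129SF2/J (0.16). Of these 3, 0 passed a limma adjusted p of 0.05 in FVB, where 1.51% of 11962 genes did, 1 passed in C57BL/6 against 19.5%, and 0 in B2KO against 1.8%, of which 0.0836% passed as higher and 1.71% as lower. In FVB 0.903% passed as higher and 0.61% as lower. At an unadjusted limma p of 0.05 the counts were 0, 1 and 2, the 2 in B2KO being Scgb1a1 and Epcam. The shares of all genes at that unadjusted p were 11.4%, 32.6% and 23.8%. The median over all genes tested was a difference of -0.28 in B2KO, and it was -0.08 without the failed array, treated B2KO replicate 10. Without that array the genes called went from 215 to 43 in B2KO, from 181 to 377 in FVB and from 2335 to 3239 in C57BL/6.

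Scgb1a1 differed by 0.24 ± 0.77 in FVB (adjusted p = 0.957), by -0.10 ± 0.79 in C57BL/6 (0.950) and by -1.63 ± 0.81 in B2KO (0.205), the latter with a permutation p of 0.134. In B2KO the mean was 0.42 untreated (SD 3.16, n = 10) and -1.21 treated (SD 0.61, n = 10), and the medians were -0.72 and -1.31. The large spread of the untreated mice came from replicates 5 and 3, and without replicate 5 alone the difference was -0.89. In FVB the small positive difference turned to -0.28 without treated replicate 3.

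Sftpc differed by 0.75 ± 0.55 in FVB (adjusted p = 0.685), by -0.21 ± 0.56 in C57BL/6 (0.839) and by -0.49 ± 0.58 in B2KO (0.618). In B2KO it was 0.12 without untreated replicate 5. Sftpb, Sftpa1 and Sftpd stayed under the filter, and their differences in these 3 lines lay between -0.33 and 0.34.

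In B6129SF2/J, where the members were chosen, treated minus untreated means were -2.98 ± 0.77 for Scgb1a1, -0.71 ± 0.55 for Sftpc, -0.49 ± 0.29 for Sftpd, -0.10 ± 0.23 for Sftpa1, -0.09 ± 0.29 for Sftpb and 0.14 ± 0.39 for Epcam. The untreated Scgb1a1 mean of 1.69 (SD 3.97, n = 10) came from 3 arrays over 5 and 7 arrays at 0.18 or under, and the treated mean was -1.29 (SD 0.48, n = 12). The difference of medians was -0.77. Leaving out untreated replicate 6, 1 or 10 gave -2.17, -2.34 or -2.54. Without the 7 high arrays it was -0.57 ± 0.27 for Scgb1a1, and for Sftpc it was 0.26 ± 0.35.

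**Figure D4:**
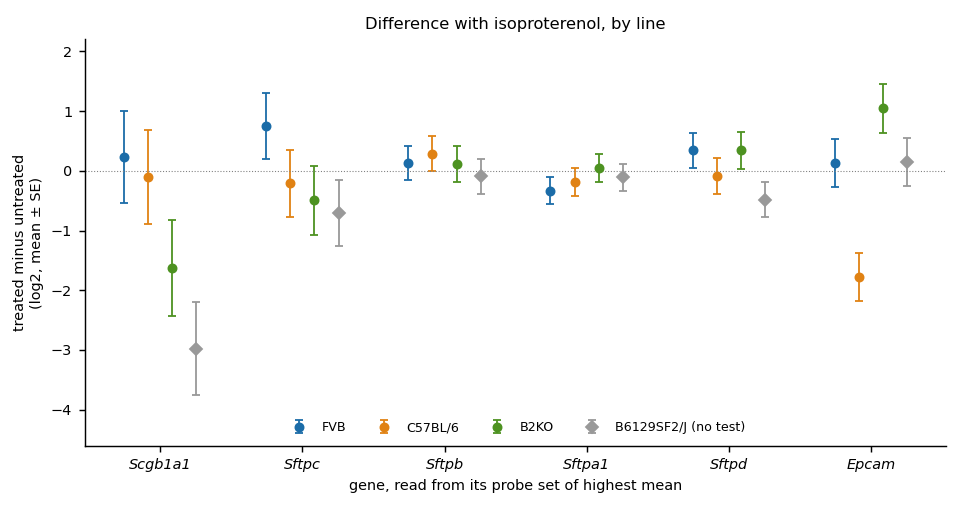
Points are the log2 difference between treated and untreated group means with its SE from the fit over 8 groups, for each gene on the horizontal axis and each line by colour. Grey diamonds are the B6129SF2/J values, which chose the members and have no test. Scgb1a1 has the widest errors, 0.77 to 0.81, and Epcam in C57BL/6 at -1.78 is the value past the threshold.

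Epcam, read by 1447899_x_at, was the member that passed in C57BL/6. Its lowest, median and highest values were 0.00, 1.47 and 3.81 in the 11 untreated mice and -1.27, 0.01 and 1.25 in the 10 treated mice. Of the untreated mice 6 lay above every treated one, and the other 5 overlapped with them. It fell by 1.78 ± 0.41 (limma adjusted p = 0.000853, permutation p = 0.00345), where 6.98% of genes passed as lower. The 5 untreated arrays above log2 2, replicates 1, 2, 3, 4 and 6, had a median correlation with all other arrays of 0.931 to 0.938 and Gapdh at 9.22 to 9.69. The other 6 untreated arrays read 0.00 to 1.47 at Epcam, with median correlations of 0.916 to 0.961 and Gapdh at 9.60 to 10.50, and the treated arrays had 0.935 to 0.956 and 10.00 to 10.80. The part of these array differences in the fall was not tested. In B2KO it ran from -0.95 to 1.65 with a median of -0.16 untreated and from -0.54 to 2.90 with a median of 1.41 treated, a difference of 1.05 ± 0.42 (adjusted p = 0.126, permutation p = 0.0419). In FVB the difference was 0.13 ± 0.40 (adjusted p = 0.954).

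The Epcam effect differed between B2KO and C57BL/6 by 2.83 ± 0.58 (limma adjusted p = 0.00207; 1.23 with both probe sets averaged), where 1 of the 3 members and 10.5% of all genes passed, 1.61% as higher and 8.93% as lower. Between FVB and C57BL/6 it differed by 1.92 ± 0.57 (adjusted p = 0.0579), where 0 of 3 members and 1.7% of genes passed, 0.669% as higher and 1.03% as lower. Between B2KO and FVB it differed by 0.91 ± 0.58 (adjusted p = 0.581), where 0 members and 0% of genes passed. At an unadjusted limma p of 0.05, Epcam passed in the first and second and no member in the last, and 29.9%, 15.1% and 8.91% of all genes did.

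Untreated lines differed at this probe set too. Untreated Epcam was lower in B2KO than in C57BL/6 by a difference of -1.67 ± 0.41 (limma adjusted p = 0.00235), with 1 of 3 members and 9.93% of genes past the threshold, 4.65% as higher and 5.28% as lower. With both probe sets averaged it was -0.41 (adjusted p = 0.271), and the other Epcam probe set gave 0.85. At an unadjusted p of 0.05, Scgb1a1 also passed there, with 1.60 (unadjusted limma p = 0.0444, adjusted p = 0.211), as did 22.2% of all genes. Scgb1a1 had passed the filter through untreated B6129SF2/J and untreated B2KO itself, so this p is not an independent test. The Scgb1a1 medians were -0.72 in untreated B2KO and -1.31 in untreated C57BL/6. Without untreated B2KO replicate 5 (7.09) the Scgb1a1 difference was 0.86. In FVB against C57BL/6 the Epcam difference was -1.18 ± 0.41 (adjusted p = 0.0415), with 1 of 3 members and 12.2% of genes past the threshold, 4.4% as higher and 7.81% as lower. That call was lost with both probe sets averaged, where the difference was -0.27 (adjusted p = 0.493). It was also lost with centred arrays (0.0779), quantile normalization (0.0593), no filter (0.0552) and without the 7 high arrays (0.0523). Untreated B2KO and FVB differed by -0.49 ± 0.42 (adjusted p = 0.999), with 0 of 3 members and 0.0167% of genes past it, 0.00836% in each direction, and at an unadjusted p of 0.05 also 0 members, with 3.9% of genes. These comparisons share the untreated C57BL/6 mice with the effect in that line. Both arrays in doubt by strain markers were among the highest of their groups at this probe set, treated FVB replicate 2 at 2.82 and treated B2KO replicate 7 at 2.32, and the part of line background in the values was not tested.

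The second Epcam probe set did not show the C57BL/6 difference, and between untreated lines it ran the opposite way. By 1416579_a_at, treated minus untreated was 0.30 ± 0.28 in C57BL/6 (permutation p = 0.394), 0.13 ± 0.28 in FVB (permutation p = 0.721) and -0.07 ± 0.29 in B2KO (permutation p = 0.807). Untreated B2KO minus C57BL/6 was 0.85 ± 0.28 (limma adjusted p = 0.0484 over 45037 probe sets) and untreated FVB minus C57BL/6 was 0.64 ± 0.28 (adjusted p = 0.164). With both probe sets averaged the C57BL/6 difference was -0.74 (limma adjusted p = 0.0158). The 4 arrays in which 1416579_a_at was above the array median were treated FVB replicate 6 (1.37), treated C57BL/6 replicate 7 (0.71), untreated B2KO replicate 5 (0.27) and untreated B2KO replicate 2 (0.20). The first 3 of these had Rag1 at 7.01, 6.97 and 5.87, Krt8 at 3.39, 3.52 and 3.22 and Krt18 at 4.74, 4.81 and 4.12, above the highest of the 81 others, which were 4.62, 2.65 and 3.55. Scgb1a1 was at -1.88 and -1.49 in the first 2 of them and at 7.09 in the third. Of the 5 arrays with Rag1 at log2 2 or above, the other 2, treated FVB replicates 1 (Rag1 4.62) and 7 (3.50), read -1.20 and -0.73 at this probe set. The part of thymus and keratin genes in this reading was not tested, and 1 of the 3 high arrays was high at the lung genes.

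**Figure D5:**
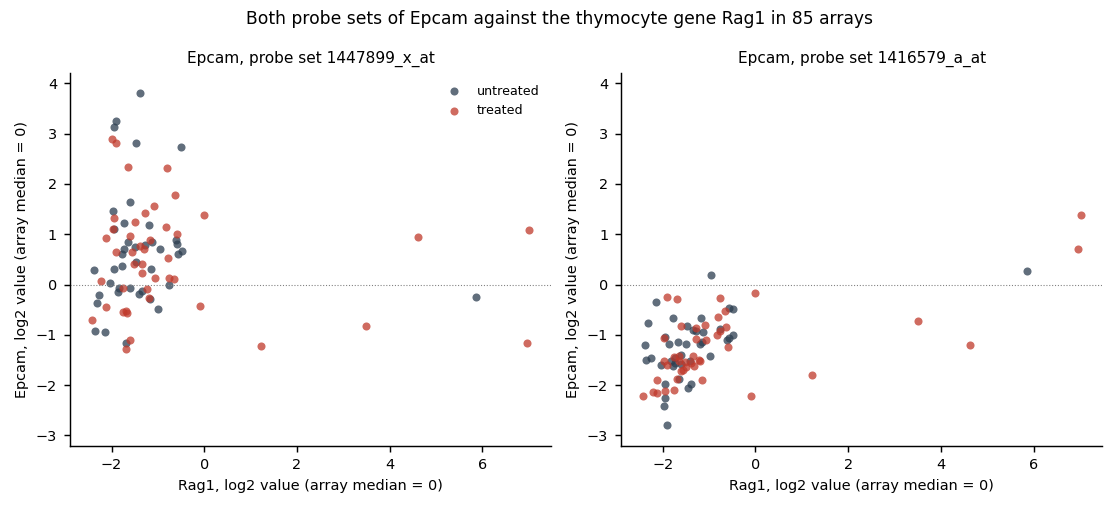
Each point is 1 of 85 arrays, with the thymocyte gene Rag1 on the horizontal axis and Epcam on the vertical axis, both as log2 values with the array median at 0, black for untreated and red for treated. The left panel is probe set 1447899_x_at and the right panel 1416579_a_at. The 3 arrays with Rag1 over 5 hold the 3 highest values of 1416579_a_at, 0.27 to 1.37, and the highest value of 1447899_x_at, 3.81, lies at a low Rag1.

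Other epithelial genes were counted from lists written beside the members. Of the 9 club and secretory genes, 3 passed the filter, and the only call was the cytochrome Cyp4b1 in B2KO, which fell by 1.00 ± 0.26 (limma adjusted p = 0.0281), and by 0.60 (adjusted p = 0.149) without the failed array. Cyp4b1 read 4.61 at the median of the 78 arrays and so was not limited to the arrays with airway genes. The list's median differences were -0.42 in FVB, 0.11 in C57BL/6 and -0.34 in B2KO, against -0.0047, 0.09 and -0.28 over all genes tested. Of 10 alveolar type 2 genes, 3 passed the filter and 0 were called in any of the 3 lines, with medians of 0.0035, 0.25 and -0.36. At an unadjusted limma p of 0.05, 1, 0 and 1 of the 3 club and secretory genes and 0, 0 and 1 of the 3 type 2 genes passed in FVB, C57BL/6 and B2KO.

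Keratins rose in C57BL/6, where Epcam fell by its 1447899_x_at reading. Of 15 general epithelial genes, 6 passed the filter, and 3 rose in that line, where 12.5% of all genes passed as higher: Krt8 by 2.18 ± 0.41 (limma adjusted p = 6.31e-05), Krt18 by 2.06 ± 0.33 (3.49e-06) and Krt7 by 1.20 ± 0.28 (0.00114), all filament proteins of simple epithelia. With probe sets averaged the Krt8 rise was 1.39 (limma adjusted p = 0.00168), and Krt18 and Krt7 stayed at 2.06 and 1.20. Krt18 also rose in FVB, by 1.19 ± 0.32 (adjusted p = 0.0303), and 0 of 6 passed in B2KO, also at an unadjusted p of 0.05. The median of the 6 in C57BL/6 was 0.98, against 0.09 over all genes tested. Treated C57BL/6 replicate 7 was the highest of the 78 arrays at both Krt8 and Krt18.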

How the data were processed

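The authors deposited 1 table of linear intensity for 86 arrays. The submitters' processing notes name GCRMA, a background correction and summary of probes, without its version. Every deposited array had a median of 1, so log2 of the intensity puts the array median at 0. Of 34945 probe sets with a single symbol in the platform annotation, 99.4% matched RefSeq GRCm38.p6 by gene number. Treated B2KO replicates 4 and 9 (r above 0.9999) were averaged, leaving 85 arrays. A gene was read from its probe set of highest mean.

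Genes with a highest group mean above log2 0 entered 1 limma fit (limma 3.58.1, R 4.3.3) over 8 groups with empirical Bayes moderation. P-values were two-sided, adjusted by Benjamini-Hochberg over 11962 genes, with a threshold of 0.05. Permutation tests drew 100000 resamples. The fit was first tested on simulated data.

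The members and the marker lists were chosen with earlier results of these data known. The text names the members, the 5 genes most like each, and list genes past the threshold or of highest mean; others were picked after their values were seen. Alternatives were other filters, scalings, probe set rules, array weights, a replicate block and left-out arrays. The labels give no batch, and p-values measure the spread between these samples. The number of arrays limits the precision.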

Additional observations from a re-analysis of the deposited data

Results flagged for a closer look

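Within groups of 4 to 10 arrays, 45 combinations of group and probe set were examined for an array far from its group, and 3 were found. Chance alone gives about 1 in 20, so by count 3 of 45 is near the number that chance gives. The combinations share arrays and are not independent, so this count does not judge any single array. Scgb1a1 in untreated B2KO and untreated B6129SF2/J, which hold 2 and 3 arrays high at it, was not among the 3. Untreated B2KO replicate 5 stood apart at Sftpc (1418639_at) with 5.28, where the next array of its group was at 0.47, and at Sftpa1 (1422334_a_at) with 1.70, where the next was at -0.94. The same array had Scgb1a1 at 7.09 and Rag1 at 5.87. Treated C57BL/6 replicate 7 stood apart at Epcam (1416579_a_at) with 0.71, where the next was at -1.06, and had Rag1 at 6.97. The groups of 11 and 12 arrays, which hold both high treated FVB arrays, were not examined in this way. The isoproterenol effect on Epcam, read by 1447899_x_at, differed between B2KO and C57BL/6 by 2.83 (limma adjusted p of the interaction 0.00207), and the other probe set of Epcam gave -0.07 and 0.30 for the effects in these lines.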

How the results depend on the processing

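With the stricter filter, a group mean above log2 2, no member was tested, so the count of 1 became 0 in C57BL/6, for B2KO minus C57BL/6, and for untreated FVB and untreated B2KO against C57BL/6. The untreated FVB against C57BL/6 count also became 0 with no filter, quantile normalization, centred arrays, averaged probe sets and, added after seeing the data, without the 7 high arrays. It ranged from 0 to 1 with each array left out, and the adjusted p of Epcam from 0.0073 to 0.493 over the other settings. Untreated B2KO against C57BL/6 became 0 with averaged probe sets. B2KO became 1 with array weights (Epcam 1.31, limma adjusted p = 0.0280). FVB minus C57BL/6 became 1 with log2(value + 1), without the failed array and without 8 arrays (the failed array and the 7 in doubt), and ranged from 0 to 1 with each array left out.

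The median Pearson r over the 15 pairs of members was 0.330 over 85 arrays, 0.438 with averaged probe sets and with each gene's probe set of highest single value, and 0.216 without the 7 high arrays; within lines it was 0.250 to 0.351. Differences that passed no test turned sign for Epcam in FVB (-0.059 without 3 arrays, the failed one and 2 in doubt by strain, -0.037 without 8 arrays, -0.26 with array weights), for Sftpc in B2KO minus C57BL/6 (0.21 with centred arrays), and with quantile normalization for Scgb1a1 (-0.030) and Sftpc (-0.022) in untreated FVB against C57BL/6. With each array left out, Scgb1a1 ran from -0.28 to 0.35 in FVB, from -0.23 to 0.011 in C57BL/6 and from -0.18 to 0.47 for FVB minus C57BL/6, and Epcam in FVB from -0.059 to 0.31. Sftpc ran from -0.61 to 0.12 in B2KO, from -0.42 to 0.33 for B2KO minus C57BL/6, from -0.011 to 0.27 in untreated FVB against C57BL/6, and from -0.12 to 0.63 and -0.25 to 0.48 in untreated B2KO against C57BL/6 and FVB. The ends at -0.28 and -0.18 came without treated FVB replicate 3, and those at 0.12, 0.33, -0.12 and -0.25 without untreated B2KO replicate 5. The cause of the other turns was not tested.

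Over the settings the genes called ranged from 129 to 1797 in FVB, 1382 to 4001 in C57BL/6, 43 to 1177 in B2KO, 54 to 1308 and 569 to 2238 for FVB and B2KO minus C57BL/6, 948 to 2809 and 694 to 3626 for untreated FVB and B2KO against C57BL/6, 0 to 10 for B2KO minus FVB and 1 to 117 for untreated B2KO against FVB.

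Replicate numbers did not pair the samples, with a mean r of same-numbered arrays of -0.054 to 0.015 by line. With the replicate block the Epcam difference in C57BL/6 was -1.78 (limma adjusted p = 0.000841), and the block changed no call. Scgb1a1, Sftpa1 (1429626_at) and Sftpd lay low on the scale in most arrays, where small differences have little order. Their median percentiles within an array were 31.5, 14.9 and 16.45.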
